A study of Mus musculus with 9 samples.

Results

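The response of microglia to lipopolysaccharide was followed across 16575 of the 23134 genes of the deposited table, those whose normalized count averaged at least 10 over the 9 libraries. Membership was set by that level alone and not by a test of any difference between groups. The comparison uses 6 of the 9 libraries, 3 from control mice given saline and 3 from control mice given lipopolysaccharide (LPS). The remaining 3, from LPS-treated mice in which astrocytes lacked the chromatin remodeller Chd8 (conditional knockout, cKO), entered the model only to help estimate the spread. The submitters do not name the Cre driver in the labels used here.

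All mice were 2 to 3 months old, and brains were taken 72 hours (3 days) after an injection into the peritoneum, of LPS at 5 mg/kg or of saline. Every group came from perfused cortex and hippocampus. Cells were taken on CD11b beads after removal of myelin and of cells bearing the astrocyte antigen ACSA-2, and polyadenylated RNA was sequenced with a stranded kit. Each group has 3 numbered samples, and nothing in the labels ties each to its own animal; the p-values therefore rest on a spread that may be partly technical. All titles carry the word saline, including those of mice whose treatment label is LPS. Groups were therefore taken from the genotype and treatment labels.

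Microglia are the resident macrophages of the brain. LPS, a glycolipid of the outer membrane of Gram-negative bacteria, is sensed by Toll-like receptor 4, which drives an NF-kB programme of cytokines and an interferon regulatory factor programme of interferon beta. Secreted interferon then acts on genes with an interferon-stimulated response element. In the brain, peripheral LPS acts on microglia largely through circulating mediators and the vasculature, and the days after the injection also bring blood leukocytes, most of which carry CD11b.

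Libraries held 10845937 to 86571481 reads, recovered from the deposited values. The shallowest was control saline library 3, so low genes are least precisely measured in the saline group. Control LPS library 1 stood apart. Its summed normalized count over 11 astrocyte markers was 136883, against 13993 to 19252 in the saline libraries and 6283 and 8895 in the other 2 control LPS libraries. Results are therefore given with and without it. Other non-microglial markers were uneven too. Choroid plexus and ependymal markers summed to 175000, 13477 and 37718.5 in saline libraries 1, 2 and 3. In LPS libraries 1, 2 and 3 those sums were 49800, 3993 and 6689. Mural cell markers summed to 13926 to 25086 in saline and to 25446, 6045 and 4840 in LPS libraries 1, 2 and 3. The part of such cells in the genes called lower was not tested. Microglial markers were well read. The 17 homeostatic microglial markers summed to 1453700 to 2053600 normalized counts in saline and 1216290 to 1476380 in LPS libraries, and 1 of the 17 fell (Slc2a5, a call lost without saline library 2 or 3 or LPS library 2 or 3) while none rose. All 17 had negative log2 changes, from -1.13 to -0.03 with a median of -0.59 (-0.49 without LPS library 1), against 0.02 for all genes.

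Markers of blood leukocytes moved with treatment, where 4.68% of all tested genes rose and 0.923% fell. Of 14 neutrophil markers, 12 rose, and of 11 monocyte markers, 7 rose. Leaving out Csf3r, which was read at 27329 to 48415 normalized counts in saline libraries, the other 13 neutrophil markers summed to 812, 626 and 1502 in the saline libraries and 10978, 85871 and 54563 in the LPS libraries. Mpo, Stfa2 and Stfa3 had no read in any saline library. The monocyte sum was 6326 to 9203 in saline and 16858 to 44256 in LPS. Of 8 tested NK and T cell markers, 4 rose, with a sum over the 12 markers in the table of 90 to 276 in saline and 623 to 4329 in LPS. The part of these cells in the results that follow was not tested. In sorted bulk RNA, more cells of a type and more RNA per cell cannot be told apart.

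LPS changed 929 genes (5.60% of those tested) at an adjusted p under 0.05 in limma, and 776 of them were higher (4.68%) against 153 lower (0.923%). The median rise was 2.29 on the log2 scale, with 264 genes over 8-fold. The median fall was -0.96, with 4 genes over 8-fold and 79 of the 153 at most 2-fold. The median change of all tested genes was 0.02. Genes that rose had a median normalized count of 106 in saline and 695 in LPS. Genes that fell started from higher values, a median of 1880 in saline against 917 in LPS.

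All 929 changed genes had 3 LPS values outside the range of the 3 saline values. Where the groups of a called gene are said to be apart, this adds nothing to its call. Over all tested genes, 2227 (13.4%) lay wholly higher and 1364 (8.23%) wholly lower in LPS, so most non-overlapping genes were not called. The LPS libraries differed among themselves in how far the genes rose. LPS library 2 was the highest of the 3 for 586 of the 776 risen genes, and LPS library 1 the lowest for 657. The median coefficient of variation of the risen genes was 39.5% over the LPS libraries and 24.7% over the saline libraries, against 20.2% and 20.5% for all genes. Fallen genes were tighter, at 15.8% and 12.3%.

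The number of genes called depended on single libraries. Without control LPS library 1 the counts were 1338 higher (8.07%) and 488 lower (2.94%). Of the genes called with all libraries, 761 rises (4.59%) and 138 falls (0.833%) were also called without it, and 15 rises and 15 falls were not. A further 577 rises and 350 falls were called only without it, and no gene was called in opposite directions. Leaving out another library lowered both counts. They were 355 higher and 32 lower without LPS library 2, and 319 and 55 without LPS library 3. Without saline library 1, 2 or 3 they were 448 and 51, 377 and 41, and 479 and 83. Without cKO LPS library 1, 2 or 3 they were 562 and 81, 574 and 92, and 669 and 132. Genes called with all libraries and in each of the 6 fits without a saline or control LPS library numbered 286 higher (1.73%) and 24 lower (0.145%), and they are the ones described first. These were also called in every fit that left out a cKO library. The authors' deposited table for the same contrast calls 1384 genes higher and 386 lower at its adjusted p under 0.05, all 286 and all 24 among them.

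**Figure D1:**
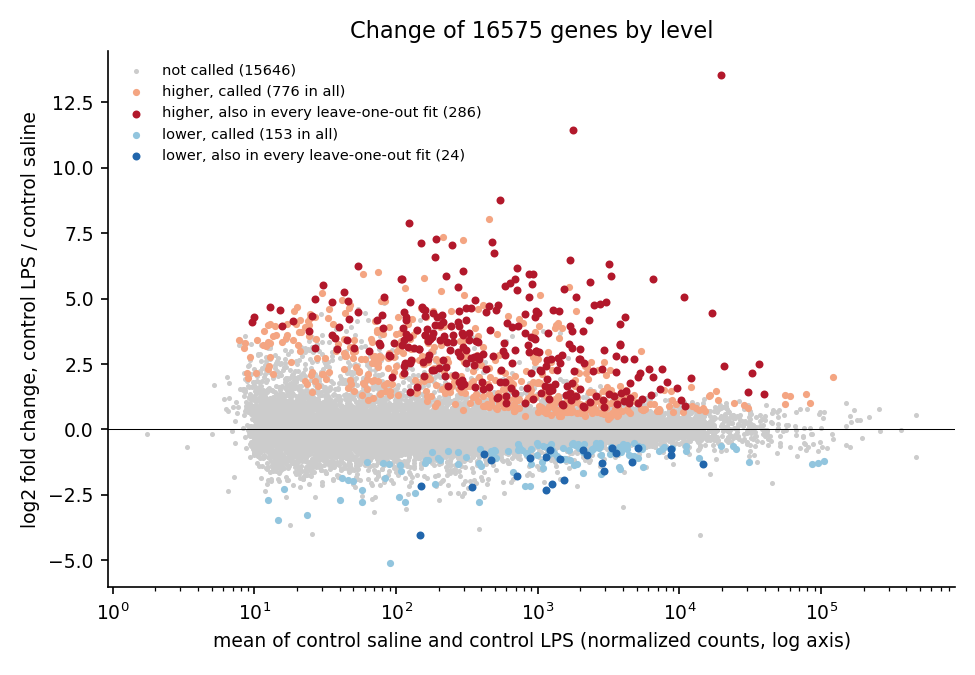
Each point is 1 of the 16575 tested genes. The logarithmic x axis gives the mean of the control saline and control LPS group means (normalized counts). The y axis gives the log2 fold change of control LPS over control saline. The 776 genes called higher extend up to 13.54, the value of Saa3, while the 153 genes called lower have a median of -0.96.

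The genes called in every fit were sorted by what their products do, after it was known which genes they were. Of the 286 rises, 54 act in cell division, 50 are interferon-induced, 43 are surface receptors or adhesion molecules, 31 are metabolic enzymes, transporters or channels, and 23 are granule, acute-phase or antimicrobial proteins. Cytokines number 7, complement and coagulation factors 5 and antigen-presentation genes 5. A further 15 carry clone names and 53 were not assigned. Of the 286, 203 belonged to none of the lists of pathways and markers used here.

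Interferon-induced genes rose in all 3 LPS libraries, with a median log2 fold change of 2.67 (0.87 to 5.58) over the 50. Mx1, a GTPase that blocks viral replication, stood at 137, 164 and 125 normalized counts in saline libraries 1, 2 and 3 and at 1494, 2017 and 1425 in LPS libraries 1, 2 and 3. The LPS values were all far above the saline values, and the change was 3.52 ± 0.17 (SE; limma adjusted p = 8.27e-05). Zbp1, a sensor of Z-form nucleic acids that triggers cell death, rose from 82.9, 59.6 and 99.5 to 898, 1690 and 1117 (3.90 ± 0.27, adjusted p = 0.000267). Usp18, which removes ISG15 and restrains interferon receptor signalling, rose from 181, 182 and 193 to 803, 1118 and 828 (2.29 ± 0.18, adjusted p = 0.000392). In all 3 genes every LPS library, library 1 included, was above every saline library. Of the 28 genes of an interferon list, 27 rose and none fell, where 4.68% of all tested genes rose. Their median was 2.61, against 0.02 for all genes.

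Several of these genes sit beside one another. The longest run of neighbouring tested genes that all rose held 6 genes of the Ifi200 family of nucleic acid sensors and their relatives on chromosome 1 (173468485 to 173767069, GRCm38): Ifi206, Ifi213, Ifi209, Ifi208, Ifi207 and Ifi204. Their log2 changes ran from 2.54 to just under 4, and all 6 were called in every fit. The next held 5 Ifit genes, whose products bind viral RNA, on chromosome 19 (34550550 to 34662981), with changes of 2.30 to 5.06, also all called in every fit. These are families of related genes, and how the authors' counting shared reads between similar copies is not given in the sources used here. Values of members that closely resemble one another are therefore uncertain. Which members are alike enough for this was not tested.

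The promoters of 3 of these neighbours show the element through which interferon acts. The 250 bases before the RefSeq start (GRCm38.p6) are printed 5′ to 3′ on the gene's strand, with matches to GAAA, any 2 bases, then GAAA, or to the reverse complement, in capitals. They lie at chr19:34583279-34583528, plus strand (Ifit3), chr1:173599273-173599522, minus strand (Ifi213) and chr1:173491319-173491568, minus strand (Ifi206).
Ifit3: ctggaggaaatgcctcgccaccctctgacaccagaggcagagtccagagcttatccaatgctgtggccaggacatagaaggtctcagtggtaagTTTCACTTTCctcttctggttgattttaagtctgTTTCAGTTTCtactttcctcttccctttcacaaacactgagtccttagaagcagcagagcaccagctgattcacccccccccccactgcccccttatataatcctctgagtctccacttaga
Ifi213: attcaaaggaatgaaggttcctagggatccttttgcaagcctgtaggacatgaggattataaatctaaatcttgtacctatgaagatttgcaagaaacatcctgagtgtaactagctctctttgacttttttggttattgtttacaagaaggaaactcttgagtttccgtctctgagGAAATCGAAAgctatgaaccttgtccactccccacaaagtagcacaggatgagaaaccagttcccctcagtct
Ifi206: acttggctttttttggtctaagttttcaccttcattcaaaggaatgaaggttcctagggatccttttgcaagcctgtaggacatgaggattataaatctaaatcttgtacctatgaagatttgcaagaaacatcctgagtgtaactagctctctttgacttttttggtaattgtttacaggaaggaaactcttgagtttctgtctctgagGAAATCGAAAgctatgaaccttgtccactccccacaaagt
Ifit3 has 2 matches, whose first bases lie 156 and 122 bases before the start. Ifi213 and Ifi206 have 1 match each, 73 and 40 bases before it. Shifted by 33 bases, their windows share 217 positions, of which 214 are identical, and the match is the same 10 letters in both. Ifit3 stood at 392, 309 and 375 normalized counts in saline and 2279, 3142 and 2374 in LPS. Ifi213 went from 81.9, 104 and 93.1 to 652, 583 and 711, and Ifi206 from 23.7, 31.9 and 16 to 342, 462 and 352. All 3 genes separated the groups without overlap. Ifit2, in the same run, had no match in its window and rose from 284, 267 and 369 to 2360, 3746 and 2915.

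Among the 12476 tested genes with a RefSeq promoter, that element was found on either strand in 3.23% of the 300-base windows (250 bases before the start to 50 after). The share was 62.2% (23 of 37) for the interferon-induced genes called in every fit, 9.46% for all genes called higher and 4.13% for genes called lower. The interferon-induced promoters were poorer in G and C, at 47.9% against 60.0% for all. A match is a description of the sequence and not a measured site.

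Cell division genes rose from low values. Over the 54 called in every fit, the median log2 change was 3.38 (1.74 to 4.86), and the median normalized count was 26.4 in saline and 326 in LPS. Mki67, the proliferation marker Ki-67, stood at 190, 172 and 183 in saline and 1393, 5091 and 3122 in LPS (3.95 ± 0.46, adjusted p = 0.00289). Ccnb2, a mitotic cyclin, went from 26.7, 30.5 and 22.5 to 233, 626 and 515 (3.95 ± 0.41, adjusted p = 0.00184). Ube2c, the ubiquitin-conjugating enzyme of the anaphase-promoting complex, went from 18.8, 19.4 and 12.8 to 190, 499 and 426 (4.28 ± 0.46, adjusted p = 0.00204). The groups did not overlap, and LPS library 1 was the lowest and library 2 the highest in all 3 genes. Of 34 kinesins, 10 rose, where 4.68% of all tested genes did, among them Kif20a (3.62), a motor of cytokinesis. Which cells in the sort divided was not tested.

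Lists of genes that serve DNA replication and repair, taken whole, held some calls, where 4.68% of all tested genes rose. Of 29 genes of homologous recombination and DNA repair, 3 rose and none fell (median 0.47), and of 26 genes of chromatin assembly and maintenance 1 rose (median 0.46). Of 26 genes of nucleotide synthesis and salvage, 5 rose (median 0.40), among them thymidine kinase Tk1 (76.0, 31.9 and 61.0 in saline; 455, 1541 and 588 in LPS) and uridine phosphorylase Upp1 (18.8, 4.16 and 6.42; 107, 275 and 274). Both were called in every fit.

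Promoters of 2 cell division genes are shown for a different element, the CCAAT box bound by NF-Y. The 250 bases before the start lie at chr9:70421555-70421804, minus strand (Ccnb2) and chr2:164769679-164769928, plus strand (Ube2c), and matches to CCAAT or ATTGG are in capitals.
Ccnb2: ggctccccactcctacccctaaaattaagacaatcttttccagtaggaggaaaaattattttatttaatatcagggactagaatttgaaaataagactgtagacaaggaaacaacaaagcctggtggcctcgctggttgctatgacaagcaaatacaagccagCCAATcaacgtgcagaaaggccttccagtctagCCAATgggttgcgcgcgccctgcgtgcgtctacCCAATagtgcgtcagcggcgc
Ube2c: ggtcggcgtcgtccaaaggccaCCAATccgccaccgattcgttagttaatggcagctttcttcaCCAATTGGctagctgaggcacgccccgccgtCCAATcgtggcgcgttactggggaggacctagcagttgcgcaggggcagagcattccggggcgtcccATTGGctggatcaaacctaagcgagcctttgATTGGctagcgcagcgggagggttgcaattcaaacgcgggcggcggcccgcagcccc
Ccnb2 has 3 matches, with first bases 87, 54 and 21 bases before the start, spaced at an even 33 bases. Ube2c has 6, of which the pair at 186 and 183 overlap. CCAAT was present in 79.1% (34 of 43) of the promoters of the cell division genes called in every fit, against 38.4% of all tested genes and 39.3% of all genes called higher. TTTGAA, the core of the cell cycle homology region, was present in 62.8% (27 of 43) of them, against 12.5% of all and 21.2% of genes called higher. It was also present in 37.8% (14 of 37) of the interferon-induced promoters, so it was not limited to cell division genes. Cdc25b, the phosphatase that activates mitotic CDK1, had 1 CCAAT match.

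Granule, acute-phase and antimicrobial genes rose by a median of 5.76 over 23 genes (2.14 to 13.54). Saa3, an acute-phase serum amyloid made in mouse macrophages, had 1.97, 0 and 3.21 normalized counts in saline and 7183, 65024 and 45731 in LPS. The saline group held 3 reads of it and the LPS group 145865, a ratio of 27886 after scaling for depth, with an exact 95% interval of 9542 to 135225 that covers counting error only. The fitted log2 change was 13.54 ± 0.81 (adjusted p = 0.000141). Lcn2, a protein that binds bacterial siderophores, went from 33.6, 54.0 and 96.3 to 1191, 9641 and 8130 (6.32 ± 0.82, adjusted p = 0.00414). LPS library 1 was the lowest LPS library for both genes, though still far above saline.

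Neutrophil granule enzymes belong to this group. Mpo, myeloperoxidase, had no read in saline and 367, 221 and 157 normalized counts in LPS, at least 169-fold higher against a floor of 3 reads over the saline group. Prtn3, proteinase 3, had 1.97, 0 and 0 in saline and 99.4, 126 and 97.5 in LPS. LPS library 1 was the highest of the 3 for Mpo and in the middle for Prtn3. It was the lowest for the stefin A protease inhibitors, where Stfa2 had no read in saline and 34.6, 2066 and 1166 in LPS, at least 785-fold higher. These granule genes thus did not follow 1 order over the libraries. S100a8 and S100a9, subunits of the metal-binding protein calprotectin, lie in a run of 4 risen genes with S100a4 and S100a6 on chromosome 3 (90603770 to 90695721). S100a8 went from 117, 127 and 257 to 1971, 22705 and 13749. Their rises stand beside the neutrophil marker sums given above.

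Surface receptors formed a broad class of rises, with a median of 3.29 over 43 genes (1.23 to 11.45). Marco, a scavenger receptor of macrophages for bacterial surfaces, had no read in saline and 929, 4389 and 5384 normalized counts in LPS, at least 2455-fold higher. Of 24 Siglec, Lilrb, Pir and Cd300 receptors, immune receptors that mostly carry inhibitory or activating motifs, 14 rose and none fell, with a median of 2.26 (2.85 without LPS library 1). Cd300lf, a lipid-binding inhibitory receptor, went from 138, 140 and 202 to 1814, 10536 and 5360 (4.88 ± 0.58, adjusted p = 0.00304). Pirb, a receptor for class I molecules, went from 1079, 1404 and 1059 to 4319, 12133 and 8508 (2.71 ± 0.31, adjusted p = 0.00289). In both, LPS library 2 was the highest and library 1 the lowest. Of 38 lipid, amine and orphan G protein-coupled receptors, 9 rose and 3 fell. For both lists the share over all tested genes was 4.68% higher and 0.923% lower. The formyl peptide receptor Fpr2 rose by 5.44 and the orphan receptor Gpr165 fell by 2.32 on the log2 scale.

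Of 19 integrin subunits, 4 rose (Itgal, Itgax, Itga4 and Itgb2) and 1 fell (Itga9), with a median of 0.14; over all tested genes 4.68% rose and 0.923% fell. Itgal, the alpha chain of the leukocyte integrin LFA-1, went from 180, 119 and 186 to 1833, 8517 and 5648 (4.80 ± 0.50, adjusted p = 0.00184). Itga4 went from 272, 269 and 327 to 871, 2772 and 2445, and Vcam1, a ligand of the integrin that Itga4 forms, from 1699, 1546 and 2134 to 4249, 5078 and 4501. Itga9 went from 4155, 4513 and 3764 to 2428, 2463 and 2605 (-0.73 ± 0.11, adjusted p = 0.00752). Trem1 and Clec4e, activating receptors of myeloid cells, rose by 5.06 and 5.34. Vcam1, Trem1 and Clec4e were singled out after their values were seen.

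A different sequence was more frequent in promoters of receptor and granule genes than in all promoters, though most of them lacked it. GAGGAAGT, a form of the site of the myeloid factor PU.1, was present on either strand in 22.9% (8 of 35) of the receptor promoters and 25% (5 of 20) of the granule promoters, against 3.25% of all tested genes and 7.67% of genes called higher. It was present in 2.33% (1 of 43) of the cell division promoters and 8.11% (3 of 37) of the interferon-induced promoters. Among falls it was present in 15.8% (3 of 19) of those called in every fit and 4.13% (5 of 121) of all genes called lower. It was therefore not limited to genes that rose.

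Enzymes and secreted factors completed the set called in every fit. Hsd11b1, which regenerates active glucocorticoid from its inactive form, had 2.96, 2.77 and 0 normalized counts in saline and 366, 401 and 370 in LPS. The 3 LPS values lay within a narrow range that was far above saline, and the change was 7.27 ± 0.55 (adjusted p = 0.000327). Acod1, which makes itaconate from an intermediate of the citric acid cycle, went from 27.6, 20.8 and 12.8 to 319, 1880 and 1266 (5.48 ± 0.71, adjusted p = 0.00397). Chst2, a sulfotransferase that modifies surface glycans, went from 260, 173 and 273 to 1785, 1843 and 1822. Ptgs2, the inducible cyclooxygenase COX-2, went from 618, 608 and 491 to 1947, 5991 and 3022. Met, the receptor of hepatocyte growth factor, went from 4.94, 5.54 and 3.21 to 55.9, 60.6 and 81.8. Acod1, Chst2, Ptgs2 and Met were singled out after their values were seen. In Hsd11b1, Chst2 and Met the 3 LPS libraries agreed more closely than in Acod1 and Ptgs2.

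Among secreted factors, the chemokine Cxcl13, which attracts B cells, had 1.97, 1.39 and 0 in saline and 174, 497 and 223 in LPS (7.13 ± 0.71, adjusted p = 0.0014). Il1b, encoding interleukin 1 beta, was already well read in saline at 12515, 9615 and 9523 and reached 40307, 94652 and 53063 (2.49 ± 0.30, adjusted p = 0.00304). Complement genes rose as well. Cfb, a protease of the alternative pathway, went from 13.8, 27.7 and 12.8 to 714, 1708 and 1773 (6.16 ± 0.43, adjusted p = 0.000267). C4b, of the classical pathway, went from 830, 1467 and 1819 to 20216, 59162 and 18996 (4.44 ± 0.43, adjusted p = 0.00127). The classical initiators C1qa, C1qb and C1qc, among the most read genes in both groups, were 0.48, 0.37 and 0.35 higher on the log2 scale and were not called.

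**Figure D2:**
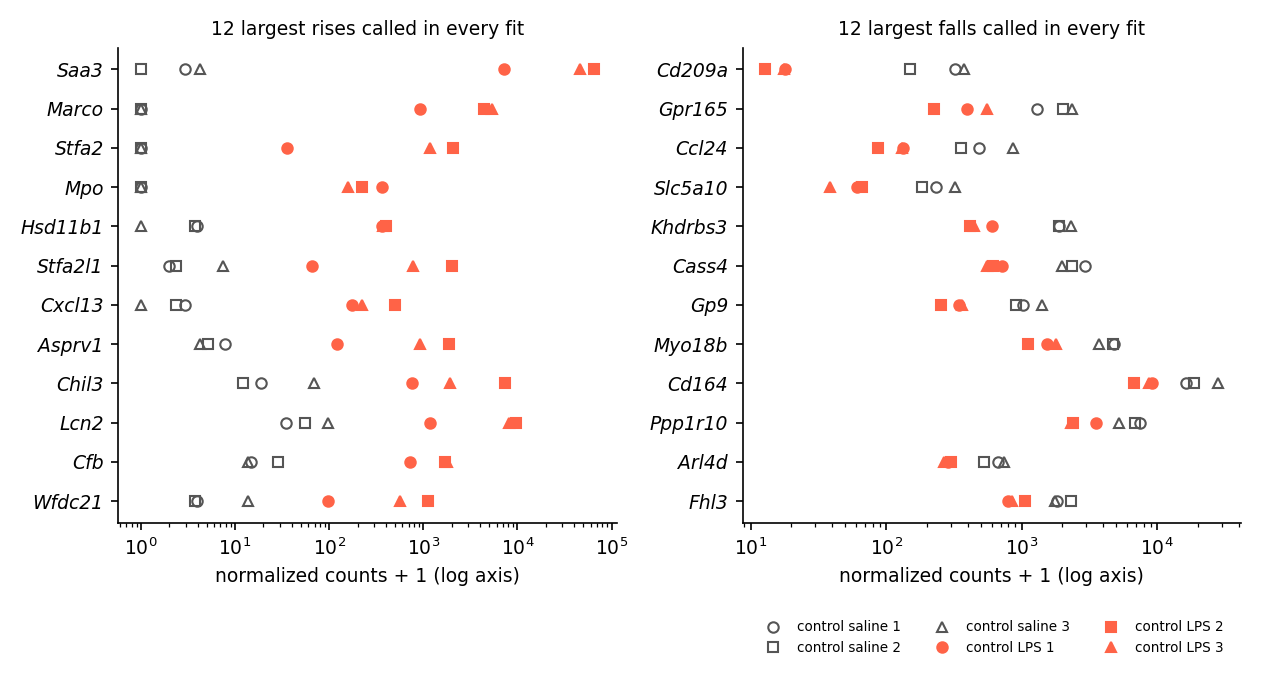
Normalized count plus 1 (logarithmic x axis) in each of the 6 libraries for the 12 largest rises and the 12 largest falls among genes called in every fit, with a mean of at least 50 and no clone name. Grey open symbols are saline libraries and red filled symbols LPS libraries; the groups do not overlap in any of these genes, and the rises span a far wider range than the falls.

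The 24 falls called in every fit were mostly modest, with a median log2 change of -1.15, and 15 were over 2-fold. The largest was Cd209a, a C-type lectin related to DC-SIGN, which went from 321, 148 and 372 in saline to 16.9, 11.8 and 16.6 in LPS (-4.04 ± 0.62, adjusted p = 0.00772). Its neighbours Cd209b and Cd209c on chromosome 8 (3743395 to 3954746) fell with it, though their calls were lost without some libraries. Cd209b kept its call in 3 of the 6 fits and lost it without saline library 1, LPS library 2 or LPS library 3. Cd209c kept its call only without LPS library 1. Cd209a is also among the dendritic cell markers, and the cell that carried it was not tested. Of those markers, 2 of 9 rose and 1 fell, against 4.68% and 0.923% of all tested genes.

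The other leading falls do not share a single function. Khdrbs3, an RNA-binding regulator of splicing, went from 1889, 1891 and 2320 to 604, 416 and 444 (-2.07 ± 0.17, adjusted p = 0.000463). Cass4, a scaffold of focal adhesions, went from 2955, 2370 and 1973 to 720, 613 and 555 (-1.94 ± 0.18, adjusted p = 0.00113). Gp9, a subunit of the platelet glycoprotein Ib complex, went from 1017, 905 and 1409 to 347, 254 and 361 (-1.78 ± 0.21, adjusted p = 0.00292). Groups were well apart in each. Ccl24, an eosinophil chemokine, fell by 2.21, Gpr165 by 2.32, the sugar transporter Slc5a10 by 2.16 and the myosin Myo18b by 1.60 on the log2 scale. Cd164, a sialomucin, went from 16374, 18708 and 28359 to 9201, 6773 and 8659 (-1.34 ± 0.22, adjusted p = 0.00882), and Ppp1r10, a nuclear subunit of protein phosphatase 1, from 7539, 6820 and 5275 to 3520, 2411 and 2310. Arl4d, a small GTPase, and Fhl3, a LIM-domain protein, fell by 1.17 and 1.13.

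Smaller falls among the 24 were singled out after their values were seen. Tlr5, the receptor of bacterial flagellin, went from 1116, 1273 and 1194 to 598, 590 and 497 (-1.09 ± 0.15, adjusted p = 0.00516). Tuba1a, a tubulin, went from 11452, 11530 and 11738 to 6604, 5883 and 5384 (-0.96 ± 0.12, adjusted p = 0.00304). Errfi1, a feedback inhibitor of the EGF receptor, went from 3194, 2922 and 2779 to 1484, 1470 and 1600, and Sertad1, a cell cycle and transcription cofactor, from 1505, 1420 and 1755 to 676, 752 and 805. Libraries of a group differed little in these genes, so falls near 2-fold were called in every fit.

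Atf4, the transcription factor of the integrated stress response, was among the 24, at 12173, 10896 and 9998 in saline and 6309, 6067 and 7273 in LPS (-0.75 ± 0.12, adjusted p = 0.00906). Genes that it is known to control were called lower too. Of 20 aminoacyl-tRNA synthetases, the enzymes that charge tRNA, 3 fell (Yars, Mars1 and Cars) and none rose, with a median of -0.17. The share over all tested genes was 0.923% lower and 4.68% higher. Yars went from 2331, 2320 and 2602 to 1680, 1481 and 1308 (-0.70 ± 0.13, adjusted p = 0.0154). Ddit3, which encodes CHOP and neighbours Mars1 on chromosome 10 (127290793 to 127311786), went from 2691, 2663 and 2198 to 1516, 1674 and 1877 (-0.58 ± 0.13, adjusted p = 0.0319). These calls were less firm than that of Atf4. Yars lost its call without LPS library 2 or 3, Mars1 and Cars kept theirs only in the fit without LPS library 1, and Ddit3 only in the fit without saline library 3. Of 22 genes of the unfolded protein response and ER chaperones none was called (median -0.01). Atf4 and Ddit3 were singled out after their values were seen.

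Immediate-early genes were among the most read of the falls. Egr1, a zinc finger factor induced within minutes of a stimulus, went from 134478, 149229 and 90582 to 54034, 40034 and 52083 (-1.34 ± 0.33, adjusted p = 0.0477). Jun, a subunit of AP-1, went from 150584, 152816 and 102779 to 49854, 48285 and 69399 (-1.27 ± 0.30, adjusted p = 0.0426), and Rhob, an inducible small GTPase, from 150501, 150648 and 131715 to 62433, 50094 and 79586 (-1.19 ± 0.27, adjusted p = 0.0335). The groups were apart in each gene. Saline library 3 was the lowest of the saline libraries in all 3. Egr1 and Rhob kept their calls only without LPS library 1, and Jun lost its call without any 1 of the 6 libraries. Zfp36, which destabilizes cytokine mRNA, was read at 145602 to 213696 in saline and 116180 to 119024 in LPS and was not called. Of 22 MAP kinase phosphatases and SOCS genes, 2 fell and none rose, and of 18 cytosolic heat shock genes 2 fell and 1 rose, with a median of -0.51 against 0.02 for all genes. Over all tested genes 0.923% fell and 4.68% rose. Such genes also respond to tissue dissociation, and its part was not tested.

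Calls were spread over all levels of expression. Normalized counts are not divided by gene length, so the classes describe how well a gene was read. Of 4700 genes averaging 10 to under 100, 142 rose (3.02%) and 19 fell (0.404%). Of 5851 genes from 100 to under 1000, 348 rose (5.95%) and 48 fell (0.820%). From 1000 to under 10000, 253 of 5416 rose (4.67%) and 75 fell (1.38%), and at 10000 and over 33 of 608 rose (5.43%) and 11 fell (1.81%). With all libraries the share of rises was lowest in the lowest class and the share of falls increased from class to class. Without LPS library 1 the falls made up 2.21%, 4.24%, 2.33% and 1.64% from the lowest class to the highest, so that increase was lost. The median size of a called rise shrank with level, from 3.25 in the lowest class to 2.72, 1.30 and 1.27. The median standard error over all genes of a class was 0.56, 0.24, 0.16 and 0.21, so small changes could not be called in the lowest class.

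Leaving out LPS library 1 changed the classes unequally. Rises became 260, 498, 481 and 99 from the lowest class to the highest, and falls 104, 248, 126 and 10. In the highest class the share of rises went from 5.43% to 16.3%, while that of falls went from 1.81% to 1.64%. Of the 286 rises called in every fit, 27, 153, 95 and 11 came from the 4 classes, and of the 24 falls 0, 10, 13 and 1.

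**Figure D3:**
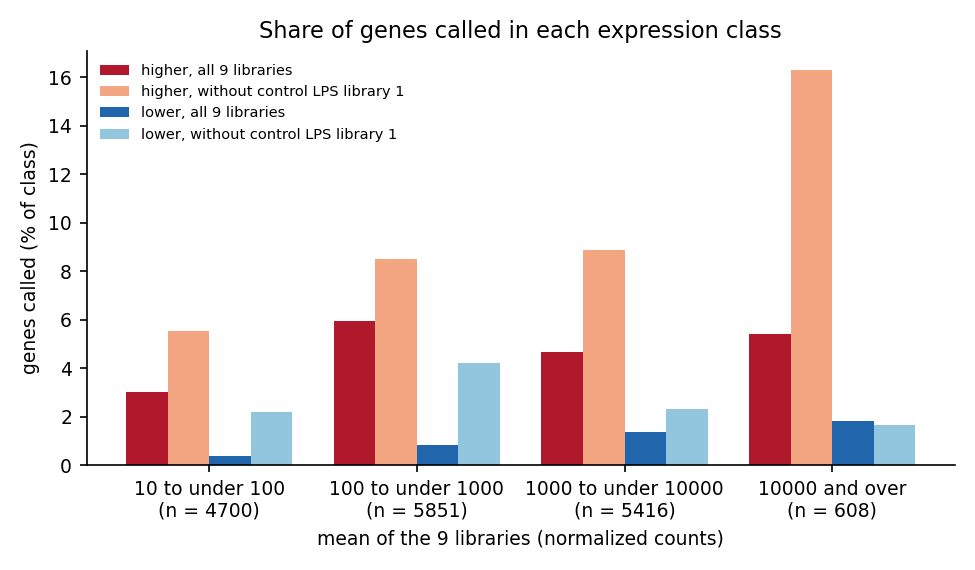
Percent of the tested genes of each expression class (x axis, mean normalized count of the 9 libraries) that were called higher (red) or lower (blue), with all 9 libraries (dark) and without control LPS library 1 (light). At 10000 and over the share called higher is 5.43% with the library and 16.3% without it.

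Leaders are described here for the lowest class only. In the lowest class the largest rises called with and without LPS library 1 were Prtn3, the stefin-like Cstdc6 and Prok2, a secreted peptide of activated neutrophils, at 6.23, 6.01 and 5.94. Cstdc6 had no read in saline and 4.44, 237 and 205 in LPS, and Prok2 none and 7.10, 132 and 211, so LPS library 1 was far under the other 2. Cstdc6 kept its call only without LPS library 1. Prok2 lost its call without saline library 2 or 3 or LPS library 2 or 3. The largest falls there were Retnla, a resistin-like secreted protein of alternatively activated macrophages, the heparan sulfate sulfotransferase Hs3st2, and Cd209c. Retnla stood at 24.7, 23.6 and 491 in saline and 0, 2.95 and 0.92 in LPS (-5.11 ± 1.15, adjusted p = 0.0357). Its saline mean rests on library 3, and its call was lost without saline library 1 or 2 or LPS library 2 or 3.

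The genes with the largest changes in mean normalized count were not all called. Of the 8 genes with the largest absolute gain in mean normalized count, Apoe and Fth1 were called, and Ctsd, Ctss, Eef1a1, Ctsb, C1qa and Psap were not. Apoe, the main lipid carrier of the brain, went from 47643, 25883 and 72892 to 106185, 297393 and 182347 (2.00 ± 0.45, adjusted p = 0.035). Fth1, the ferritin heavy chain that stores iron, went from 43804, 37604 and 48150 to 89085, 155503 and 95839 (1.36 ± 0.28, adjusted p = 0.0261). In both the LPS libraries were all above the saline libraries. Apoe lost its call without saline library 1 or 2 or LPS library 2 or 3, and Fth1 kept its call only without LPS library 1. Of the 8 largest absolute losses, Egr1, Jun and Rhob were called. Cst3, a cysteine protease inhibitor typical of microglia, was read at 551122 to 754489 in saline and 233092 to 337730 in LPS (-1.07 ± 0.46, adjusted p = 0.241) and was not called. Cx3cr1, the fractalkine receptor, was at 159675 to 226680 and 113265 to 129610 (-0.69 ± 0.26, adjusted p = 0.184). Cst3 and Cx3cr1 had no overlap between groups. Csf1r, the receptor on which microglial survival depends, was at 313100 to 405451 and 326255 to 403276, and its groups overlapped.

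In all, the 776 risen genes took 2.61%, 2.48% and 2.70% of the normalized counts of the saline libraries and 5.36%, 8.74% and 6.65% of those of LPS libraries 1, 2 and 3. The 153 fallen genes took 2.88%, 2.80% and 2.51% in saline and 1.38%, 1.04% and 1.32% in LPS. These genes were chosen for their difference, so the shares describe how much of the RNA they make up and are no test. In the cKO LPS libraries, which enter the fit only through its spread, the risen genes took 6.36% to 7.69%.

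**Figure D4:**
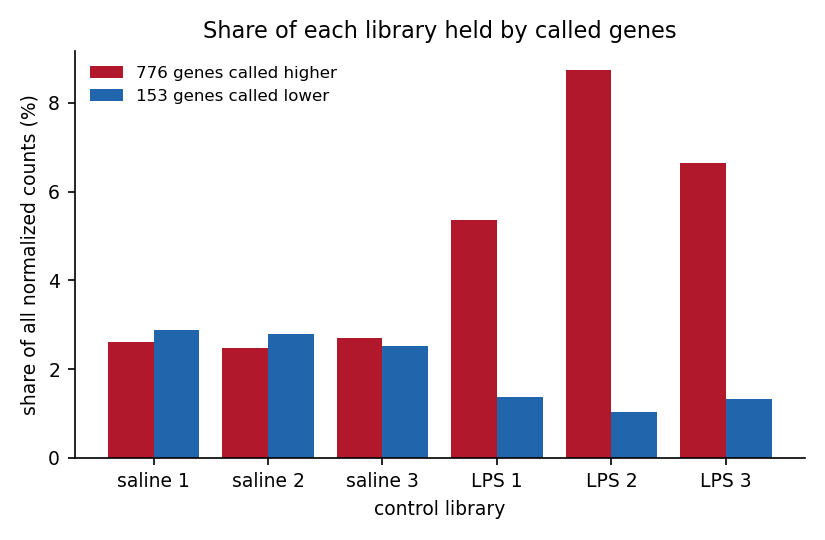
Percent of each library's normalized counts taken by the 776 genes called higher and by the 153 genes called lower (y axis), for the 6 control libraries (x axis). The risen genes take 2.48% to 2.70% in saline and 5.36% to 8.74% in control LPS, with LPS library 1 lowest and library 2 highest.

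A small set of genes went from almost no reads to clear expression. Of the tested genes, 70 had a saline mean under 10 and an LPS mean of 100 or more, and 47 of them were called higher, 25 in every fit. Saa3, Marco, Stfa2, Asprv1, Stfa2l1, Wfdc21, Fpr2, the coagulation factor F10 and Hsd11b1 are among those 25, from the highest LPS means down. A total of 19 genes had no read in any saline library, and 12 of these were called. Only 1 gene, Retnla, went the opposite way, with an LPS mean under 10 and a saline mean of at least 100. No gene that was unread in all LPS libraries was called lower. Genes unread in saline passed the mean filter only through LPS libraries, control and cKO. The counts of unread genes therefore cannot be compared between directions and are no test.

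Genes called only without LPS library 1 are by construction those in which it departed from the other LPS libraries or added spread. The 5 largest changes called only without it were Zfp831, Arg2, Cxcr1, Mctp2 and Nlrp12. Arg2, a mitochondrial arginase, had 6.91, 9.70 and 3.21 in saline and 17.8, 688 and 161 in LPS. Nlrp12, a regulator of inflammation found in myeloid cells, had 6.91, 8.31 and 6.42 in saline and 15.1, 842 and 117 in LPS. Cxcr1, a chemokine receptor of neutrophils, had no read in saline and 0.888, 127 and 13.8 in LPS. In all 3 genes LPS library 2 was several times above library 3. The order of the libraries follows in part from how these genes were chosen and is given as a description. Among the genes called only with library 1, the 5 with the largest changes were Ezr, H4c12, Lrguk, Mmel1 and Plekhg4. For these 5, limma adjusted p was 0.0404 to 0.0469 with it and 0.0536 to 0.0619 without it. The 577 rises called only without library 1 had the interferon-stimulated response element in 4.75% of promoters and TTTGAA in 14.3%, against 3.23% and 12.5% of all tested genes.

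Several function lists held no called gene. Of 78 mitochondrial ribosomal proteins, 25 core autophagy genes, 21 fatty acid oxidation genes, 30 splicing factors and 25 Notch and Wnt pathway genes none was called, with medians of 0.10, 0.07, 0.11, -0.05 and -0.24. Over all tested genes 5.60% were called (4.68% higher and 0.923% lower), so no call in a list of 21 to 30 genes is near that share. Of 24 citric acid cycle enzymes, Idh2 fell, a call kept only without LPS library 1, and none rose. Of 21 lipid droplet and fatty acid uptake genes, 3 rose, among them the droplet coat protein Plin2, which went from 1130, 1117 and 1550 to 2135, 4045 and 4554. Plin2 lost its call without saline library 1 or 2 or LPS library 2 or 3. Of 21 genes of NAD and kynurenine metabolism, 4 rose and 1 fell. The ectoenzymes Bst1 and Cd38, which break down NAD, rose by 4.18 and 1.76, Bst1 in every fit. Cd38 lost its call without saline library 1 or 2 or LPS library 2 or 3. Of 24 genes of sphingolipid and ganglioside metabolism, 4 rose (B4galnt1, Galc, Glb1 and Gm2a), 3 of which (Galc, Glb1 and Gm2a) act in lysosomal breakdown of glycolipids. Glb1 was called in every fit. B4galnt1 lost its call without saline library 3 or LPS library 3, Gm2a without saline library 1 or 2 or LPS library 2 or 3, and Galc kept its call only without LPS library 1.

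Lists moved differently when LPS library 1 was left out. The share of all tested genes called went from 4.68% to 8.07% higher and from 0.923% to 2.94% lower. The extracellular matrix list (25 genes, 6 higher) went from a median of 0.54 to 0.18, and the astrocyte markers from 1.20, with none of 11 called, to -0.82, with 2 called lower. Of 8 mural cell markers, none was called with the library and 5 were lower without it. Of 26 actin nucleation and remodelling genes, none was called with it and 6 were higher without it. The interferon and cell division lists kept 27 and 20 calls higher in both fits.

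**Figure D5:**
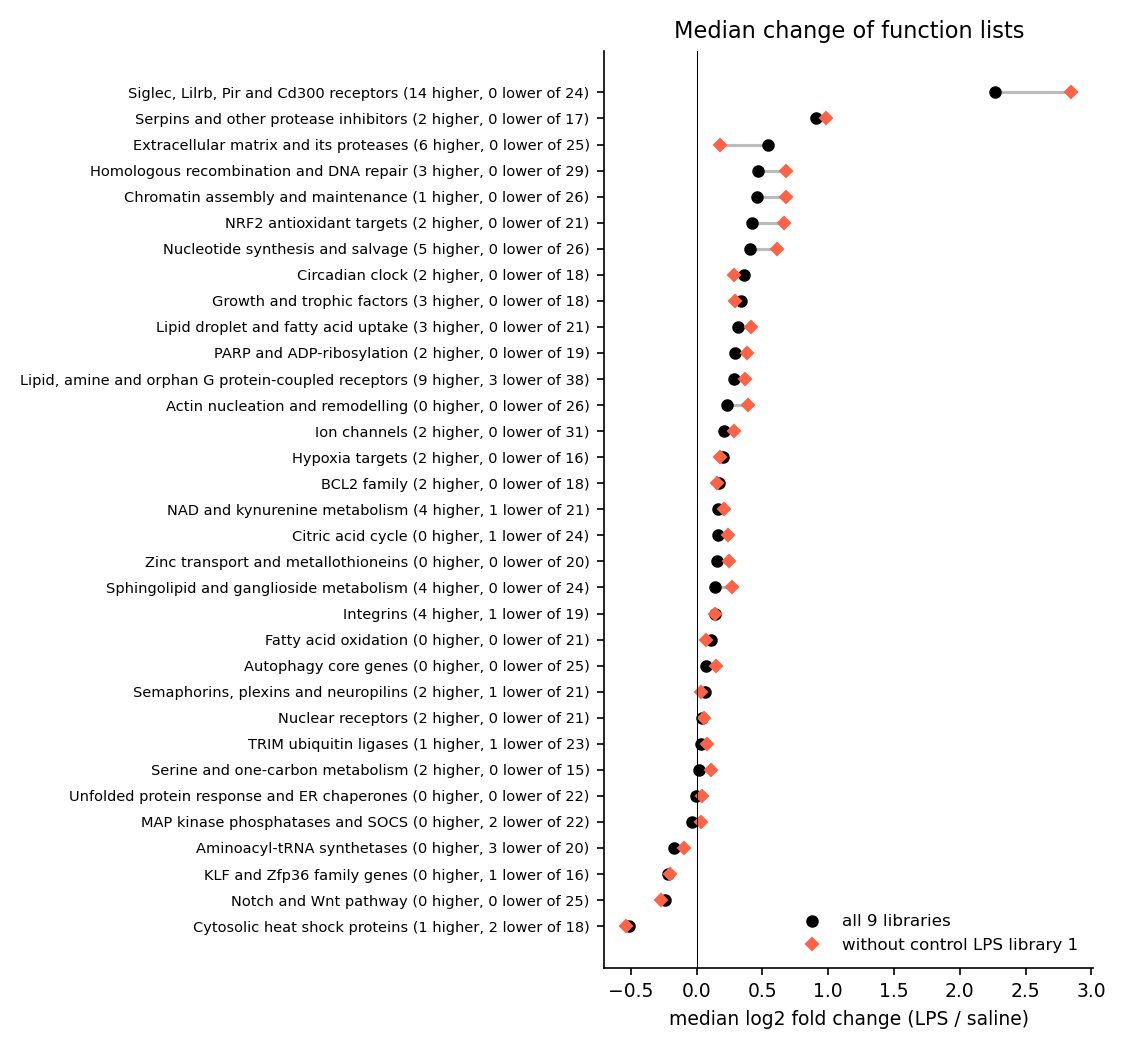
Median log2 fold change (x axis) of the members of each pathway list, with all 9 libraries (black circles) and without control LPS library 1 (red diamonds), and the number of members called higher and lower with all libraries beside each name. The Siglec, Lilrb, Pir and Cd300 receptors stand at 2.26 and 2.85, and the cytosolic heat shock proteins are lowest at -0.51 with all libraries.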

How the data were processed

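RNA sequencing of CD11b-sorted brain cells gave 9 samples in 3 groups of 3. The deposited signal is normalized: the authors divided each library's gene counts by a size factor, for 23134 genes. The submitters' processing notes name build mm10 and list Trimmomatic, FastQC and STAR for reads; featureCounts and RSEM also appear there, with MultiQC 1.12, DESeq2 and edgeR 3.30.3. What each was used for, and whether counting used strand, is not given in the sources used here. A second table, also deposited by the authors, holds log2 fold changes and p-values of the same contrast. All values (100%) were whole multiples of a library's step to within 0.01 of a read, so reads were recovered as counts. No replicate pair agreed within sampling noise.

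Differences were tested with limma 3.58.1 (R 4.3.3, trend option) after log2(value + 1), which understates changes of low genes, in 1 fit of all 9 libraries with 6 residual degrees of freedom. Genes with a mean of at least 10 were kept. Adjusted p is Benjamini-Hochberg over 16575 genes, with a threshold of 0.05. The script was tested on simulated data. Alternatives were other pseudocounts, filters and scalings, array weights, a replicate block, the 6 libraries alone, edgeR 4.0.16 and DESeq2 1.42.0 on recovered reads, and leaving out each library.

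The genes, the lists and the tests were chosen with earlier results of these data known. Lists are described by counts and medians, with no test. Named genes are the 12 largest rises and 12 largest falls called in every leave-one-out fit with a mean of at least 50, no overlap and no clone name, the 3 largest each way per class, up to 4 per list by adjusted p, the 8 largest absolute changes each way and the 10 most read genes per group, the 5 largest changes called only with or only without LPS library 1, and runs of called neighbours (4 or more higher, 2 or more lower). Examples of the roles given to genes called in every fit, which are the members of a role with the smallest adjusted p or are said to be singled out, fall outside that rule. Coordinates are 1-based in GRCm38.p6, the assembly of mm10, from RefSeq. Floors are 3 reads over a group and intervals (95%) cover counting error only. Motifs, 9 in all, were searched on both strands in RefSeq promoters, 1 per gene, which 12476 tested genes had. Of those not described above, the AP-1 site was in 9.6% of genes called higher, against 5.1% of all tested genes. The NF-kB site was in 2.3% against 1.5%, and the gamma-activated sequence in 8.0% against 6.8%. The cAMP response element was in 2.1% against 3.0%, and the E-box in 7.8% against 9.6%.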

Additional observations from a re-analysis of the deposited data

How the results depend on the processing

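With all 9 libraries, 776 genes were higher, 153 lower, and 899 were called with and without control LPS library 1. The 6 saline and control LPS libraries alone gave 357, 60 and 416, array weights 1921, 868 and 2649, and DESeq2 on recovered reads 1361, 416 and 1653; edgeR's quasi-likelihood test gave 699, 129 and 814. Quantile normalization gave 568, 243 and 788, moved the median change of all genes to -0.10, and put 70.0% of calls on the higher side, against 83.5% in the main analysis, 68.9% with array weights and 73.3% without LPS library 1. Leaving out 1 library at a time gave 319 to 1338 higher and 32 to 488 lower. Pseudocounts of 0.5 and 8, no filter and a minimum mean of 50 kept all 3 counts within 1.5 times. The replicate block gave 790, 136 and 813. Whether the numbers pair the samples is not in the labels used here. Same-numbered saline and LPS libraries deviated together with correlations of 0.37, 0.079 and 0.23, the best match for LPS libraries 1 and 3. LPS library 2 correlated best with saline library 3 (0.18). With 3 libraries a group, these correlations cannot decide whether the samples were paired. Of the named genes, 205 were called, and none of these changed sign in any alternative run; of the 154 not called, 7 did in at least 1; the causes of the other differences were not tested. Low depth of saline library 3 limits folds of unread genes.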

Other observations

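The 19 clone-named genes called lower held a cluster. Of these, 8 lie on chromosome 14 between 3571683 and 7488882 (GRCm38) and fell by 1.84 to 2.79 on the log2 scale, all 8 also without control LPS library 1 and none in every fit that left out 1 library. They are Gm3752, Gm3739, Gm3248, Gm3317, Gm3252, Gm3173, 2610042L04Rik and Gm3005. How reads were shared between copies there is not given in the sources used here, so they may not be separate events. Clone-named genes as a whole were called higher in 61 and lower in 19 of 2218 (2.75% and 0.857%), against 4.68% and 0.923% of all tested genes.

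By annotated type, 711 of 14176 protein-coding genes rose and 143 fell, and 50 of 1489 long noncoding RNAs rose and 7 fell. Over all tested genes 4.68% rose and 0.923% fell. None of 42 microRNA genes was called, too few genes to set against the 5.60% called of all tested genes. The 359 zinc finger protein genes named Zfp had a median change of -0.19, with 1 called lower and none higher, and 12 lower and 1 higher without control LPS library 1. Without that library 2.94% of all tested genes were lower and 8.07% higher. Of 18 circadian clock genes, the negative regulators Per2 and Per3 rose and none fell. Per2 went from 452, 211 and 221 normalized counts in saline to 788, 982 and 507 in LPS (1.40 ± 0.32, limma adjusted p = 0.0384), and Per3 from 1096, 930 and 497 to 2014, 1996 and 1834 (1.29 ± 0.28, adjusted p = 0.0303). Each lost its call without saline library 2 or LPS library 2, Per2 also without saline library 3 and Per3 also without LPS library 3. The time of day of collection is not in the labels used here.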
